A study of Mus musculus with 20 samples.

Results

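The 9 genes described here encode NOD receptors and inflammasome components: Nod1, Nod2, Ripk2, Nlrp3, Nlrc4, Pycard, Casp1, Casp4 and Gsdmd. They were taken by symbol from a table of 23402 genes, and each symbol matched 1 row. RNA was taken from tumours that MC38, a colon adenocarcinoma line of the mouse, formed under the skin of mice. The Control group of 10 libraries received vehicle, and a treated group of 10, called P.T.ATBx, received ATBx beside the tumour. ATBx often stands for antibiotics, but the labels give neither agent nor dose, schedule, mouse strain or age. Nor do they tie libraries to single animals, so the p-values rest on a spread between samples that may be technical in part. The title of the study links microbes in tumours to interferon signalling, and the comparison asks how tumour RNA differed after local treatment. The values are FPKM, in which fragment numbers are divided by gene length and library size, which allow levels to be set side by side between genes.

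These genes detect bacterial and danger signals inside the cell. NOD1 and NOD2 bind fragments of peptidoglycan, the polymer of bacterial cell walls, and pass the signal through the kinase RIPK2 to NF-kB and MAP kinases. NLRP3 and NLRC4 instead build inflammasomes, which bring in caspase-1 to mature IL-1 family cytokines. NLRP3 does so through the adaptor ASC, encoded by Pycard. Caspase-1 and the product of mouse Casp4, also called caspase-11, cleave gasdermin D, whose released end forms pores in the membrane. In tumours these genes are known mainly from macrophages, other myeloid cells and epithelium.

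Library composition varied within both groups. Rpph1 and Rmrp, the RNA subunits of 2 RNA-processing ribonucleases, together made up 7.75% to 20.5% of summed FPKM, and their shares were highest in Control 1, Control 3, P.T.ATBx 1 and P.T.ATBx 4. The value of 1 read, read from the spacing of low values, gave a relative depth from 0.802 to 1.27 of the mean. Read totals are unknown. Tumours held RNA of leukocytes and stroma besides that of cancer cells. Summed FPKM of 9 monocyte and macrophage markers ran from 230.1 to 327.9 in Control and from 246.1 to 337.7 in P.T.ATBx. The sum of 7 neutrophil markers ran from 20.5 to 100.4 and from 17.3 to 36.8. Epithelial markers, which would mark a colon carcinoma line, varied widely, with a sum over 8 genes from 4.17 to 178.4 in Control and 12.0 to 52.9 in P.T.ATBx. The sum of 6 fibroblast and pericyte markers ran from 1128 through a median of 1259 to 1565 in Control and from 963.5 through 1127 to 1217 under treatment. Only the decorin gene Dcn passed an adjusted p under 0.05 (limma), against 0.845% of all 12788 genes tested. Dcn was at 671.5 FPKM in Control against 543.4 under treatment (log2 fold change −0.31, adjusted p = 0.00125, limma). Of the 6, 5 had negative fold changes, against 48.5% of all genes tested. The positive one was Pdgfrb, named here after its values were seen, at 78.5 against 89.0 FPKM (log2 fold change 0.19, adjusted p = 0.339, limma). The part of these markers in the values that follow was not tested. Cdx2, an intestinal transcription factor gene, was listed at 0 in all 20 libraries. None of the other marker lists had a gene at 0 throughout. In bulk tissue, fewer cells of a type and less RNA per cell cannot be told apart.

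All 9 genes were detected in every library, and their mean levels spanned a wide range. Casp1 stood highest at 68.4 ± 7.22 FPKM (SD, n = 20), followed by Gsdmd at 46.4 ± 5.39 and Casp4 at 34.8 ± 5.46. Ripk2 was at 17.2 ± 1.52, Pycard at 8.19 ± 1.64 and Nod1 at 6.21 ± 1.29. The receptors Nlrp3 (2.60 ± 0.432), Nlrc4 (1.52 ± 0.298) and Nod2 (1.18 ± 0.321) were lowest. Effectors thus stood above adaptor and kinase, and those above the receptors. This order held in all 20 libraries for each neighbouring pair except the last, where Nlrc4 exceeded Nod2 in 18 of 20. The Nlrc4 and Nod2 means differed by about as much as their spread. Pycard exceeded Nod1 in every library, by a ratio that came down to 1.06 in 1 of them.

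**Figure D1:**
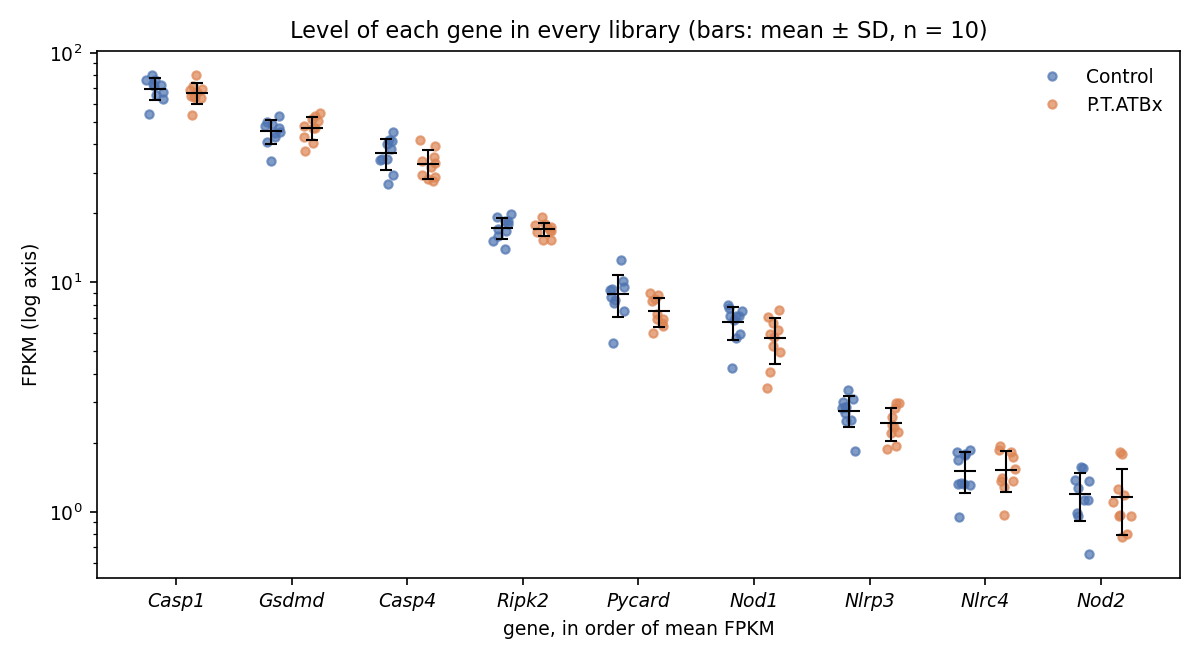
FPKM of the 9 genes (x axis, in order of mean level) on a log axis, 1 point per library, blue for Control and orange for P.T.ATBx, with black bars for mean ± SD over 10 libraries. The points of both groups overlap for every gene, from Casp1 near 68.4 down to Nod2 near 1.18 FPKM.

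Of these 9 genes, 0 passed an adjusted p under 0.05 (limma on log2(FPKM + 1), Benjamini-Hochberg over the 12788 genes tested), against 0.845% of all genes tested. At an unadjusted p under 0.05 there was 1 of 9, Pycard, against 13.6% of all genes, or 6.08% counting only genes with a negative fold change, as Pycard had. Groups overlapped in 9 of 9, where 0.133% of all genes tested had groups fully apart. The fold change was below 0 in 7 of 9, against 48.5% of all genes, and the median log2 fold change of the 9 was −0.06, against 0.00 over all genes tested. In Gsdmd and Nlrc4 it was above 0. Each fold change is the treated mean less the Control mean of log2(FPKM + 1), a scale that understates the change of low genes.

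Nod1, the receptor for peptidoglycan fragments bearing diaminopimelic acid, ran from 4.25 through a median of 7.13 to 7.94 FPKM in Control. In P.T.ATBx it ran from 3.47 through 5.87 to 7.61 FPKM. P.T.ATBx 2 and 1 and Control 2 were the lowest of the 20, and 9 of 10 treated libraries fell short of the middle of Control. Nod1 had a log2 fold change of −0.21 (95% interval −0.44 to 0.02, adjusted p = 0.407, limma). Without P.T.ATBx 2 the log2 fold change of Nod1 was −0.15, and without Control 2 it was −0.27, and it passed in neither fit.

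Nod2, the receptor for muramyl dipeptide, ran from 0.656 through a median of 1.20 to 1.56 FPKM in Control and from 0.776 through 1.04 to 1.82 FPKM in P.T.ATBx. The highest values came from P.T.ATBx 5 and 6 and the lowest from Control 2, so the treated libraries reached beyond Control at the upper end. Its log2 fold change was −0.03 (95% interval −0.22 to 0.16, adjusted p = 0.923, limma), a sign that turned under 3 alternatives. Ripk2, the kinase that both NOD receptors recruit, was the least variable of the 9. It ran from 13.9 through a median of 17.5 to 19.8 FPKM in Control and from 15.3 through 17.2 to 19.2 FPKM in P.T.ATBx. All 10 treated libraries lay within the Control range of Ripk2. Ripk2 had a log2 fold change of −0.01 (95% interval −0.13 to 0.10, adjusted p = 0.950, limma), and this sign turned under 4 alternatives.

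Nlrp3, the inflammasome sensor that responds to ion fluxes and membrane damage, ran from 1.84 through a median of 2.84 to 3.41 FPKM in Control. In P.T.ATBx it ran from 1.88 through 2.38 to 2.99 FPKM, and all 10 libraries fell within the Control range. Nlrp3 had a log2 fold change of −0.13 (95% interval −0.28 to 0.03, adjusted p = 0.474, limma), and −0.064 (adjusted p = 0.798) without the 4 libraries richest in Rpph1 and Rmrp. Nlrc4, which together with NAIP proteins detects flagellin and bacterial secretion systems, had near-equal groups. It ran from 0.952 through a median of 1.51 to 1.87 FPKM in Control and from 0.968 through 1.47 to 1.93 FPKM in P.T.ATBx. Among the treated libraries 5 lay above and 5 under the median of Control. Nlrc4 had a log2 fold change of 0.0082 (95% interval −0.16 to 0.17, adjusted p = 0.978, limma), and its sign turned under 11 alternatives.

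Pycard, the adaptor that links sensors to caspase-1, had the smallest unadjusted p of the 9. Its Control values ran from 5.45 in Control 2 through a median of 8.95 to 12.6 FPKM in Control 1, and its P.T.ATBx values ran from 6.00 through 7.09 to 9.02 FPKM in P.T.ATBx 4. The treated libraries sat inside the wider Control range, and 9 of 10 lay under the median of Control. The log2 fold change of Pycard was −0.21 (95% interval −0.41 to −0.01, p = 0.0447, adjusted p = 0.352, limma), which does not pass. Both ends of the Control range come from single libraries: the log2 fold change of Pycard was −0.16 without Control 1 and −0.28 without Control 2. These libraries were also the ends of the range of the Rpph1 and Rmrp share, at 20.5% in Control 1 and 7.75% in Control 2. Among treated libraries, P.T.ATBx 1, with the highest share of 17.2%, had 6.90 FPKM of Pycard, and P.T.ATBx 4, at 14.8%, had 9.02. Over the 20 libraries, with group means removed, Pycard had Pearson's r = 0.60 with Rpph1 and with Rmrp, at places 299 and 302 of 12787 genes. For the others of the 9, r with either RNA ran from −0.22 to 0.20. The part of composition in the group difference was not tested, and without the 4 libraries with the highest share of Rpph1 and Rmrp the log2 fold change of Pycard was −0.15 (adjusted p = 0.559, limma).

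Casp1, the protease of canonical inflammasomes, ran from 54.2 through a median of 71.9 to 80.3 FPKM in Control and from 53.4 through 66.0 to 79.9 FPKM in P.T.ATBx. The lowest library of each group, Control 3 and P.T.ATBx 10, stood apart from the remaining ones by several FPKM. Casp1 had a log2 fold change of −0.06 (95% interval −0.20 to 0.07, adjusted p = 0.731, limma). It was −0.10 without Control 3, −0.029 without P.T.ATBx 10 and −0.040 without Control 5, the highest library. Casp4, whose product binds lipopolysaccharide in the cytosol, ran from 26.9 through a median of 36.3 to 45.2 FPKM in Control and from 27.8 through 32.4 to 41.8 FPKM in P.T.ATBx. All 10 treated libraries lay within the Control range, 8 of them below its median. Casp4 had a log2 fold change of −0.15 (95% interval −0.33 to 0.04, adjusted p = 0.505, limma). Gsdmd, the pore-forming substrate of both caspases, ran from 33.9 through a median of 45.9 to 53.1 FPKM in Control and from 37.4 through 47.5 to 54.7 FPKM in P.T.ATBx. Unlike the caspases, Gsdmd had 7 of 10 treated libraries above the Control median. Gsdmd had a log2 fold change of 0.05 (95% interval −0.10 to 0.21, adjusted p = 0.803, limma). That of Gsdmd was 0.0088 without Control 3, its lowest Control library, 0.089 without P.T.ATBx 2, its lowest treated one, and 0.014 without the 4 libraries richest in Rpph1 and Rmrp.

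Within a library, Gsdmd made 0.655 of the Casp1 level in the median Control library (0.591 to 0.734) and 0.729 in the median P.T.ATBx library (0.555 to 0.803). Casp1 was 1.91 times Casp4 in the median Control library (1.78 to 2.14) and 1.99 times in the median P.T.ATBx library (1.76 to 2.42). Nod1 was 5.82 times Nod2 in the median Control library and 5.04 times in the median P.T.ATBx library. The ranges of both groups overlapped for each of these ratios of FPKM, which were not tested.

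**Figure D2:**
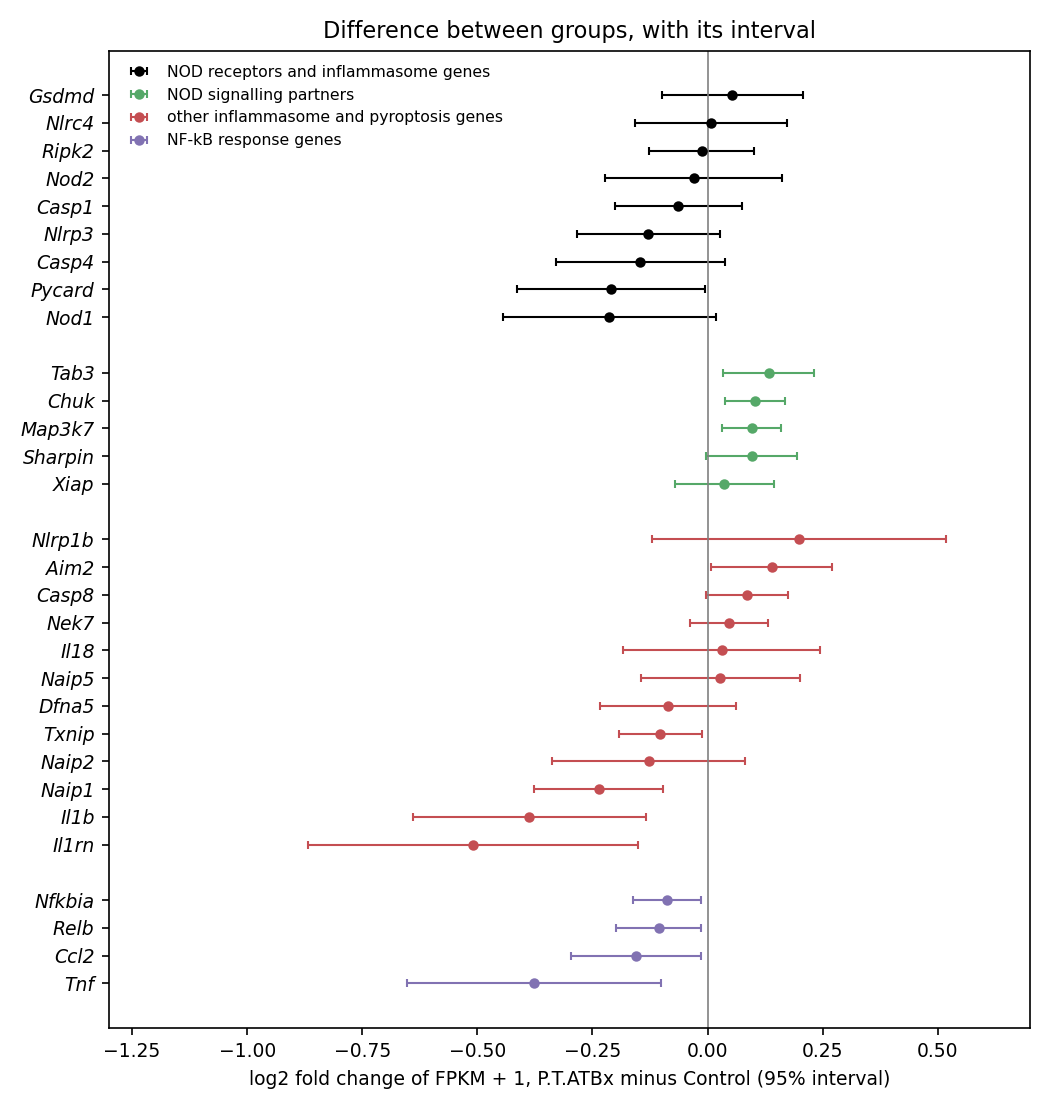
Log2 fold change of FPKM + 1, P.T.ATBx minus Control (x axis), with 95% intervals from limma for the 9 NOD receptor and inflammasome genes (black) and named genes of 3 further lists (colours). The intervals of 8 of the 9 include 0, and that of Pycard, from −0.41 to −0.01, ends just below 0.

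The other genes of these pathways were taken from 3 lists, of NOD signalling partners, of other inflammasome and pyroptosis genes, and of NF-kB response genes. Over all 3 lists 0 genes passed the adjusted threshold (limma). Of 26 NOD signalling partners, 3 had an unadjusted p under 0.05, against 13.6% of all genes tested, and 12 of 26 had a negative fold change, against 48.5%, so both counts were near the background. The list's median was 0.01, and the 3 were positive. These were kinase genes and their partner downstream of RIPK2. Chuk, which encodes the IkB kinase subunit IKKα, was at 30.0 ± 1.53 FPKM in Control against 32.3 ± 1.16 under treatment (SD, n = 10 each, log2 fold change 0.10, p = 0.00377, adjusted p = 0.126, limma). All 10 treated libraries of Chuk lay at or above the Control median. Map3k7, the gene of the kinase TAK1, was at 19.9 ± 0.917 and 21.3 ± 0.829 FPKM (log2 fold change 0.10, adjusted p = 0.155, limma). Tab3, which encodes a TAK1-binding protein, was at 5.00 ± 0.377 and 5.59 ± 0.486 FPKM (log2 fold change 0.13, adjusted p = 0.199, limma). Sharpin, a subunit gene of the linear ubiquitin ligase complex, had a log2 fold change of 0.10. Rnf31 and Rbck1, subunit genes of the same complex named here after their values were seen, had −0.16 and −0.03. Xiap, the ubiquitin ligase acting on RIPK2, had 0.04, and none of these passed.

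Of 28 other inflammasome and pyroptosis genes, 24 were tested. An unadjusted p under 0.05 was seen in 5 of them (13.6% of all genes tested), with a negative fold change in 4 (6.08%). Fold changes were negative in 14 of 24 (48.5% of all genes tested), and their median was −0.07. Naip1, a receptor gene of the NAIP family that pairs with Nlrc4, was at 1.46 ± 0.283 FPKM in Control against 1.08 ± 0.173 under treatment (SD, n = 10 each), and all 10 treated libraries lay under the median of Control. Its log2 fold change was −0.24 (SE 0.07, p = 0.00213, adjusted p = 0.0966, limma). It passed the adjusted threshold without Control 1 (adjusted p = 0.0424, limma), without Control 9 (adjusted p = 0.0455, limma) and with library weights (adjusted p = 0.0389, limma). Control 9 and Control 1 had the lowest Naip1 values of Control, at 0.983 and 1.03 FPKM. Naip genes are close copies, so how reads were divided among them is uncertain. The related Naip2 and Naip5 had log2 fold changes of −0.13 and 0.03.

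Il1b, the cytokine precursor that caspase-1 matures, was at 21.4 ± 5.59 FPKM in Control against 15.8 ± 2.43 under treatment (log2 fold change −0.39, adjusted p = 0.137, limma). Il1rn, the gene of the IL-1 receptor antagonist, was at 16.1 ± 4.72 and 10.9 ± 3.04 FPKM (log2 fold change −0.51, adjusted p = 0.176, limma). For both genes 9 of 10 treated libraries lay under the median of Control. Il18, the second cytokine that caspase-1 matures, was at 5.95 ± 1.15 and 6.11 ± 1.26 FPKM, a log2 fold change of 0.03. Txnip, a thioredoxin-binding protein gene, had −0.10. Aim2, a sensor of cytosolic DNA, had 0.14 (p = 0.0385, adjusted p = 0.335, limma), with 1 of 10 treated libraries under the median of Control. Casp8 had 0.09, Nek7, the kinase that licenses NLRP3, 0.05, Nlrp1b 0.20 and the gasdermin E gene Dfna5 −0.09, and all of these missed the threshold. The 4 genes below the filter were Nlrp6, Nlrp10, Nlrp12 and Gsdmc, with no library above 0.172 FPKM.

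Of 15 NF-kB response genes, 14 were tested, 12 had negative and 2 positive fold changes, where 48.5% of all genes tested were negative, and the median was −0.12. An unadjusted p under 0.05 was seen in 4, all negative, against 6.08% of all genes tested in that direction. Tnf was at 7.97 ± 2.20 FPKM in Control against 5.76 ± 0.980 under treatment, with all 10 treated libraries under the median of Control (log2 fold change −0.38, SE 0.13, adjusted p = 0.193, limma). It passed without Control 2, the lowest Control library (log2 fold change −0.47, adjusted p = 0.0294, limma). Nfkbia, the inhibitor gene that NF-kB itself induces, had −0.09, Relb −0.11 and the chemokine gene Ccl2 −0.16. Among markers of cells that express these cytokines, 5 of 6 neutrophil genes tested were negative, their median being −0.28, and 2, both negative, had an unadjusted p under 0.05. Of 9 monocyte and macrophage genes 6 were negative, their median was −0.10, and 3 had an unadjusted p under 0.05, 2 of them negative. The third was Cd68, a lysosomal macrophage marker named here after its values were seen, at 61.7 ± 4.71 FPKM in Control against 69.5 ± 6.12 under treatment (log2 fold change 0.17, p = 0.00398, adjusted p = 0.129, limma). Other leukocyte lists also leaned negative. Of 8 T and NK cell genes 6 were negative, their median was −0.28, and 1, a negative one, had an unadjusted p under 0.05. Of 5 dendritic cell genes tested 4 were negative, their median was −0.12, and 0 had an unadjusted p under 0.05. Over all genes tested 13.6% had an unadjusted p under 0.05, and 0 genes of these marker lists passed the adjusted threshold (limma). Their part in the Il1b, Il1rn and Tnf values was not tested.

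Most pairs of the 9 genes were positively correlated across the libraries of a group. Correlations of log2(FPKM + 1) were computed for all 36 pairs and for each gene with Ptprc, the gene of the leukocyte surface phosphatase CD45, in each group of 10, which made 90 relations. Pearson's r was positive in 33 of 36 pairs in Control, with a median of 0.42, and in 36 of 36 in P.T.ATBx, with a median of 0.61. As a background over the 20 libraries, group means removed, the median r of each of the 9 with all other genes tested lay between −0.03 and 0.02. The share of all gene pairs that would pass the test below was not computed. In each group 8 pairs passed an adjusted p under 0.05 by Pearson's r (permutation test, 100000 resamples, Benjamini-Hochberg over 90), and 1 pair in each group passed by Spearman's rho as well. With Ptprc included, 23 of 90 relations passed by Pearson's r, and 52 after each library was rescaled to 1 sum, so the count depends on the scaling. All genes of a library share its scaling, which differs between libraries.

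**Figure D3:**
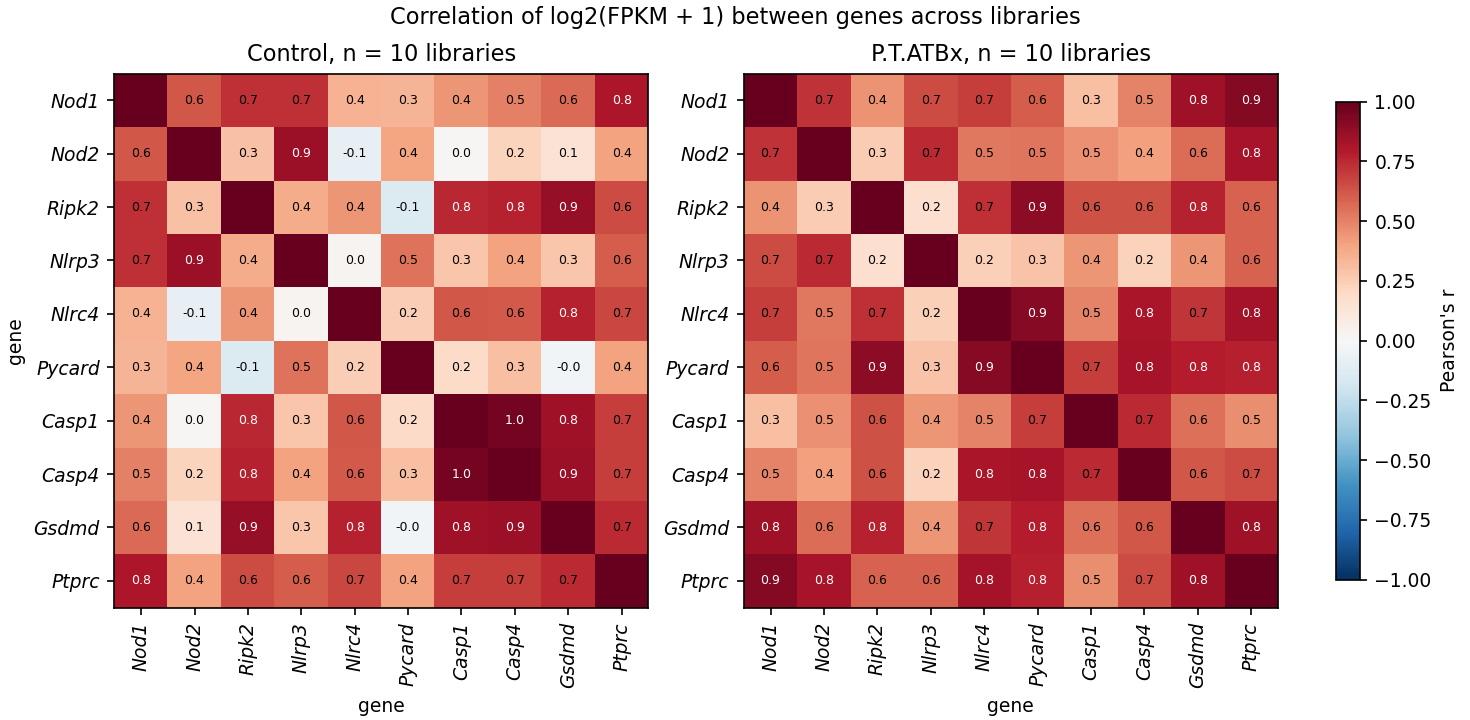
Pearson's r of log2(FPKM + 1) between the 9 genes and Ptprc (both axes) across the 10 libraries of each group, red for positive and blue for negative. In Control the cell of Casp1 with Casp4 is darkest, at 0.96, and in P.T.ATBx Pycard with Nlrc4 and with Ripk2, and Ptprc with Nod1, are among the darkest cells.

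The pair with the highest r in Control was Casp1 and Casp4. There r was 0.96 and rho 0.98 (permutation p = 2e-05, adjusted p = 0.0018 for r and 0.0027 for rho), and without Control 3 and 2, the libraries farthest from the Casp1 median, r was 0.92. In P.T.ATBx r was 0.74 and rho 0.66 (permutation p = 0.00985, adjusted p = 0.0439 for r and 0.124 for rho), and without P.T.ATBx 10 and 6 r was 0.53. Among 12787 genes ranked by r with Casp1 over the 20 libraries after group means were removed, Casp4 stood at place 2, with r = 0.86. Casp1 and Casp4 are paralogs, and reads they share could be assigned to either. They are neighbours on the plus strand of chromosome 9 (GRCm38), Casp1 at 5298517 to 5307281 and Casp4 at 5308849 to 5336791, with 1567 bases between them. Casp12 follows at 5345442 to 5373034.

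The 250 bases before the annotated start of these neighbours are shown because their RNA varied together, and those of Pycard, at chr7:127993868-127994117 on the minus strand, because it had the smallest unadjusted p of the 9. The windows of Casp1 (chr9:5298267-5298516) and of the first of 2 Casp4 starts (chr9:5308599-5308848) lie on the plus strand. Sequences are from RefSeq (GRCm38.p6), written 5′ to 3′ in the direction of the gene, and capitals mark letters that fit GGG and CC spaced 5 bases apart on either strand, a loose form of the NF-kB site.
Casp1: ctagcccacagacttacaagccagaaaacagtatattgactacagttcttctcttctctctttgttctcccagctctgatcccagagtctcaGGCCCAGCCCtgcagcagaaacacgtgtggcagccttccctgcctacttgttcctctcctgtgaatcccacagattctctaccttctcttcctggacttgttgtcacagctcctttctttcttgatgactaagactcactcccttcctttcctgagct
Casp4: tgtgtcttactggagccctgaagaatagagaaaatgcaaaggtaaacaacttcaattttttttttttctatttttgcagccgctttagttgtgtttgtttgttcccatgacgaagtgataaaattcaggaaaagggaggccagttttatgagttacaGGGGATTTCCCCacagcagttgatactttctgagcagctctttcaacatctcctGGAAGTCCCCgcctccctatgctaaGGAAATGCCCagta
Pycard: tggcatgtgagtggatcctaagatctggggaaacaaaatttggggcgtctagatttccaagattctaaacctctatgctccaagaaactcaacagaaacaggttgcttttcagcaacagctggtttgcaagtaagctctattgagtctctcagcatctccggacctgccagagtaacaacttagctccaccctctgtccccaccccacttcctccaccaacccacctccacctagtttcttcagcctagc
The Casp4 window held 5 such matches, 3 of them overlapping in 1 run from 93 to 82 bases before the start, the Casp1 window 1, and the Pycard window 0. The pattern is common: 45.8% of the 32851 windows of this length hold it, and 60.4% of the 12844 windows of tested genes. A core of interferon-response elements, GAAA and GAAA spaced 2 bases apart (2.98% of all windows), was in none of these 3 windows, nor was TTC and GAA spaced 3 bases apart (7.02%), a core of STAT sites. A match describes letters and does not show binding.

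Nod2 and Nlrp3 were the next pair by their places in each other's rankings. In Control r was 0.86 and rho 0.68 (permutation p = 0.00221, adjusted p = 0.0221 for r and 0.122 for rho), and r was 0.53 without Control 2 and 5, so the size of r rests in part on those libraries. In P.T.ATBx r was 0.75 and rho 0.60 (permutation p = 0.0139, adjusted p = 0.0519 for r and 0.165 for rho), and 0.56 without P.T.ATBx 5 and 6. With group means removed, Nod2 stood at place 8 of 12787 genes for Nlrp3, and Nlrp3 at place 15 for Nod2. Ripk2 and Gsdmd, which passed by r in both groups, had r = 0.87 and rho = 0.79 in Control (permutation p = 0.00093, adjusted p = 0.0167 for r and 0.0819 for rho) and r = 0.77 and rho = 0.77 in P.T.ATBx (permutation p = 0.0103, adjusted p = 0.0439 for r and 0.0894 for rho). Without the 2 libraries farthest from the Ripk2 median r was 0.61 in Control and 0.88 under treatment.

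Pycard had weak or negative r with Ripk2 and Gsdmd in Control and high r with both under treatment. With Ripk2 it had r = −0.14 and rho = −0.43 in Control (permutation p = 0.715, adjusted p = 0.749 for r and 0.312 for rho), with r = −0.84 once Control 3 and 2 were left out. In P.T.ATBx the same pair had r = 0.89 and rho = 0.95 (permutation p = 0.00024, adjusted p = 0.0072 for r and 0.00495 for rho), with r = 0.89 without P.T.ATBx 10 and 4. Pycard and Nlrc4 in P.T.ATBx had r = 0.91 and rho = 0.83 (permutation p = 0.00047, adjusted p = 0.0106 for r and 0.0761 for rho), with r = 0.92 without P.T.ATBx 2 and 7. The difference in r between the groups was not tested, and Control 1, with the highest Pycard value, also had the highest share of Rpph1 and Rmrp, at 20.5%.

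**Figure D4:**
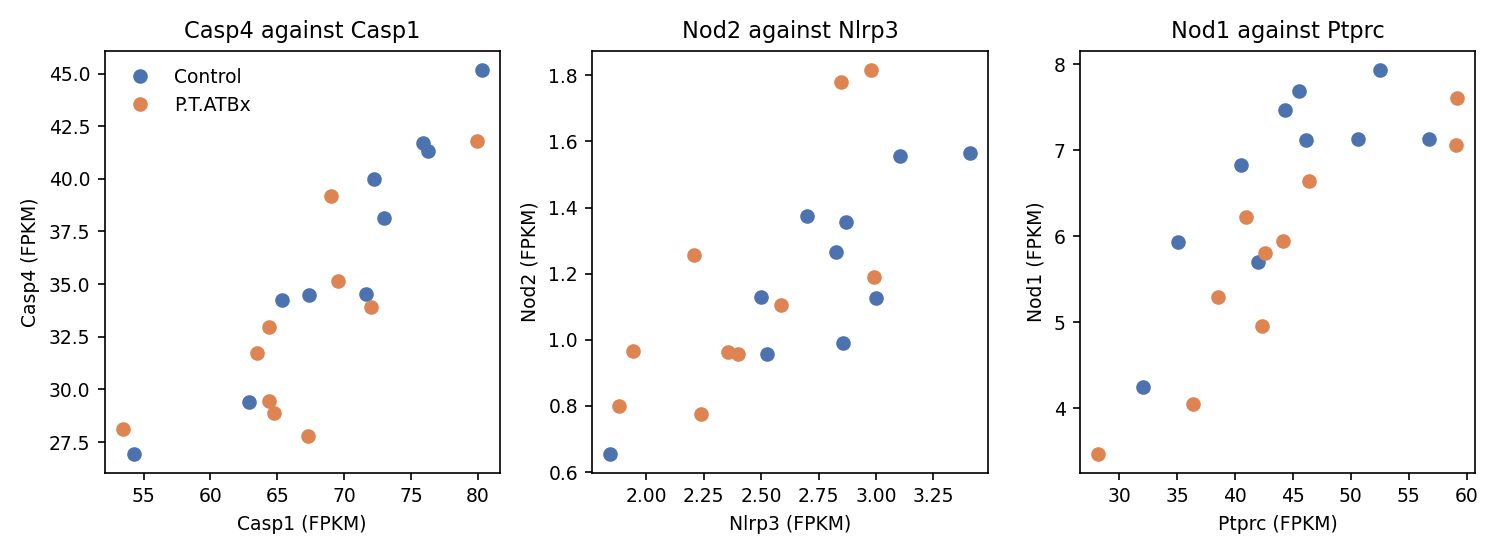
FPKM in each of the 20 libraries for Casp4 against Casp1, Nod2 against Nlrp3 and Nod1 against Ptprc, blue for Control and orange for P.T.ATBx. Points of both groups slope upward in each panel, and in the Nod1 panel r is 0.81 in Control and 0.92 under treatment.

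Ptprc, taken as a measure of leukocyte RNA, passed with 2 of the 9 genes in Control and 5 under treatment by Pearson's r. By Spearman's rho it passed only with Nod1 and Nod2, both under treatment. The share of all genes that would pass with Ptprc was not computed, and the difference between the groups was not tested. Ptprc was at 44.6 ± 7.61 FPKM in Control against 43.8 ± 9.52 under treatment (SD, n = 10 each, log2 fold change −0.04, adjusted p = 0.931, limma). Nod1 and Ptprc had r = 0.81 and rho = 0.75 in Control (permutation p = 0.0034, adjusted p = 0.0228 for r and 0.0991 for rho). Without Control 2 and 3 r was 0.47, so the size of r in Control rests in part on those libraries. In P.T.ATBx they had r = 0.92 and rho = 0.90 (permutation p = 0.00011, adjusted p = 0.00495 for r and 0.0198 for rho), and r = 0.80 without P.T.ATBx 2 and 5. Nod2 and Ptprc in P.T.ATBx had r = 0.83 and rho = 0.90 (permutation p = 0.00352, adjusted p = 0.0228 for r and 0.0198 for rho), and r = 0.94 without P.T.ATBx 2 and 5. With Ptprc as a covariate the log2 fold change of Nod1 was −0.18 (adjusted p = 0.113, limma), and without it −0.21 (adjusted p = 0.407, limma). The part of leukocyte RNA in the Nod1 difference was not tested.

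For each of the 9, the genes with the most similar pattern over the 20 libraries, group means removed, were these by Pearson's r, given as a description. Nod1 was nearest to AI607873 (0.94), Themis2 (0.93) and Syk (0.93). Nod2 was nearest to Nr4a3 (0.90), Pik3cg (0.85) and Extl3 (0.84), and Nlrp3 to Slc7a8 (0.83), Fmnl1 (0.81) and Aim1 (0.81). Ripk2 was nearest to Irf1 (0.93), Chmp1b (0.92) and Gbp9 (0.91), and Gsdmd had Tlr3 (0.92) and Gbp9 (0.91) among its nearest. Nlrc4 was nearest to Cadm1 (0.91), Lair1 (0.89) and Cxcl16 (0.88), and Pycard to Arl6ip1 (0.88), Gmfg (0.88) and Ms4a6b (0.87). Casp1 was nearest to Nmi (0.87), Casp4 (0.86) and Stx11 (0.86), and Casp4 to Phf11d (0.89), Stx7 (0.88) and Rtp4 (0.88). Gbp9 thus appeared for both Ripk2 and Gsdmd, and the 9 genes shared libraries, depth and composition with all of these.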

How the data were processed

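RNA was measured in 20 libraries of MC38 tumours, built with a stranded total RNA kit per the labels' protocols. The authors deposited 1 table of FPKM with 23402 rows, keyed by Entrez gene number and symbol, and the build was mm10 per the submitters' processing notes. Which aligner, counting tool and annotation made it is not given in the sources used here. Summed FPKM ran from 556770 to 752782 per library, and FPKM keeps no read totals, so no counting interval is given.

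Values were analysed as log2(FPKM + 1). Rows averaging 0.5 FPKM or more over 20 libraries, 12788 in number, were fitted in limma 3.58.1 (R 4.3.3) with group as the only term, robust and trended moderation, two-sided, adjusted by Benjamini-Hochberg at 0.05; all 9 genes passed the filter. Correlations used 100000 permutations in numpy 2.4.6 (Python 3.11.15), two-sided. Scripts were tested on simulated data. No columns were identical between libraries. Positions and promoter letters came from RefSeq tables of GRCm38.p6, in which promoter windows were found for 7 of the 9 genes.

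The genes and lists were chosen with earlier results of these data known. From each of 3 pathway lists the 4 tested genes with the smallest unadjusted p were named, with 10 preset genes (Il1b, Il18, Naip2, Naip5, Aim2, Nek7, Xiap, Casp8, Dfna5, Nlrp1b) and, for each of the 9, the 3 genes of highest r, leaving out predicted genes and pseudogenes. For Gsdmd, 1 of the 3 is not reported here. Alternatives were a pseudocount of 0.1, no filter, a filter at 1, quantile and median-of-ratios scaling, rescaling to 1 sum, library weights, plain moderation, the replicate number as a block, Ptprc as a covariate and each library left out. Leaving out the 4 libraries richest in Rpph1 and Rmrp was added after seeing the data.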

Additional observations from a re-analysis of the deposited data

Results flagged for a closer look

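Among 31 named genes in groups of 10, 62 groups in all, 2 groups had 1 library far from the others, where chance flags about 1 in 20 groups. Both lay in Control 1. Nek7, the kinase that licenses NLRP3, was at 50.7 FPKM there, above the next highest Control library at 46.9. Casp8, the initiator caspase that also acts in inflammasomes, was at 96.8 FPKM there, above the next at 86.1. None of the 9 NOD receptor and inflammasome genes had such a library. P.T.ATBx 1 was higher than Control 1 for both genes, at 52.7 FPKM of Nek7 and 97.2 of Casp8, but was not flagged within its group. Control 1 and P.T.ATBx 1 also had the highest Rpph1 and Rmrp shares, at 20.5% and 17.2%.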

How the results depend on the processing

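None of the 9 genes passed the adjusted threshold in any of 31 alternatives each (279 values), and the lowest adjusted p was 0.106 (Pycard without Control 2, limma). Signs held throughout for 6 of the 9. The sign of Nod2 turned with quantile scaling (0.0089), library weights (0.0088) and without the 4 libraries richest in Rpph1 and Rmrp (0.024). That of Nlrc4 turned with library weights (−0.011), without those 4 (−0.032) and on leaving out single libraries, where it ran from −0.031 to 0.047. Ripk2 turned only on leaving out single libraries, from −0.045 to 0.0084. Over all genes, 108 passed (59 higher, 49 lower), against 49 (20 higher, 29 lower) on rescaling to 1 sum, 306 with library weights, 221 with Ptprc as a covariate, 67 without those 4 libraries and 69 to 193 on leaving out single libraries. In the pathway lists 0 passed, against 1 with library weights (Naip1) and 0 to 1 on leaving out single libraries. Of 90 correlations 23 passed, against 52 on rescaling to 1 sum, which divides every gene of a library by the same total. That total includes Rpph1 and Rmrp, whose share differed between libraries. The cause of the higher count was not tested. With the replicate number as a block, 0 of the 9 genes, 0 pathway genes and 124 genes in all passed, and Nod1 had an adjusted p of 0.128 (0.407 without the block, limma). Same-numbered libraries correlated above 0.1 in 5 of 10 pairs and 3 of 10 matched their own number best; the labels tie no number to an animal or day, so the block was not taken as a pairing. Read totals are unknown, so how far depth limits each gene is too.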
